A study of Oryza sativa with 6 samples.

Results

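The genes described here are those that a rice root array names for auxin, cytokinin or gibberellin. They were chosen by words in the probe descriptions (auxin, IAA as a word or with a number, indole-3-acetic, cytokinin, gibberellin and brassinosteroid, without kaurene, P450 or receptor kinase), which found 113 of 21495 rice probes. Of these, 82 name auxin, 15 name cytokinin and 16 name gibberellin, and 0 of the chosen descriptions hold the word brassinosteroid. The descriptions are the array design's best matches, often to a cDNA of another species, so each probe is given here with its full-length rice cDNA accession, and several probes can belong to 1 gene. Signal was well above background on every array of 1 or more of the 4 groups for 111 of the 113, and these were tested. A GH3 probe (AK072125) and an axi 1 probe (AK070550) did not reach that level.

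Roots of a pair of rice lines were compared on 6 Agilent arrays of 2 colours. The groups were line 6-4 under P deficiency, line 6-4 under control, Nipponbare under P deficiency and Nipponbare under control, with 3 replicates of each that the series calls biological. Line 6-4 is near-isogenic to the japonica cultivar Nipponbare, with inserts from Kasalath, an indica cultivar. Both lines grew in 12 L pots of Andosol, a volcanic soil, which lacked phosphorus (P) for the P-deficient condition and was rich in it for the control, and RNA came from 1.6 g of root tissue. Every array held 6-4 and Nipponbare of 1 condition, so the lines were compared within arrays and the conditions between arrays. Nothing in the labels says which genes lie in the Kasalath inserts, and a ratio between the lines can reflect transcript level or how the Kasalath form binds the probe. In whole roots, fewer cells of a type and less RNA per cell cannot be told apart.

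As background, auxin moves between root cells through PIN efflux carriers and acts by removing Aux/IAA repressors from auxin response factors (ARFs), the transcription factors of the pathway. Its free level is tuned by those GH3 enzymes that tie indole-3-acetic acid (IAA) to amino acids, and by amidohydrolases of the ILR1 type, which release it again. Cytokinin oxidases break cytokinins down. Gibberellin 20-oxidases and 3-oxidases make active gibberellins and 2-oxidases inactivate them. In Arabidopsis these hormones are known for their part in how root growth and branching adjust to scarce phosphate.

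The signal of root tissue was checked first. Of 9 probes for RCc2, RCc3 and root-specific proteins, 8 were well above background on all arrays in each line and condition. Their summed signal ran from 37804.7 to 40905.1 on P-deficient arrays and from 56555.8 to 67666.5 on control arrays. Of 33 probes for chlorophyll-binding, Rubisco small chain and photosystem proteins, 27 in 6-4 and 27 in Nipponbare were well above background on all P-deficient arrays, and 25 in 6-4 and 28 in Nipponbare on all control arrays. That list summed to between 21350 and 23638.3 on P-deficient arrays and to between 20446.5 and 26895.5 on control arrays. The root list thus stood lower under P deficiency without overlap, and its part in the hormone results was not tested. Negative control spots in Cy3 were 4.8 times their local background on P-deficient replicate 2 and 5.06 times on control replicate 2, against 1.19 to 2.86 times on the other 4 arrays.

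Under P deficiency 1 hormone probe rose past the test in the mean of both lines, a probe for an IAA-amino acid hydrolase. When arrays of 1 replicate number were treated as a block, 5 more were called, all higher: 3 probes for auxin response factor 1, 1 probe for a GH3 enzyme and 1 for a cytokinin-regulated kinase. The blocked fit called 2.64% of all probes higher and 1.61% lower. The other 105 tested probes passed in neither fit. A level below is the mean normalised log2 signal of both channels of an array, and a P response is the P-deficient minus the control level, as a log2 value. The limma test, with adjustment over all 20531 probes and a threshold of 0.05, called 1.04% of them higher and 0.468% lower. Among the 111 hormone probes it called 1 higher and 0 lower, with 18 at an unadjusted p under 0.05. Such values were common on the whole array too: over all 20531 probes, an unadjusted p of 0.0482 in this test held rank 2212.

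**Figure D1:**
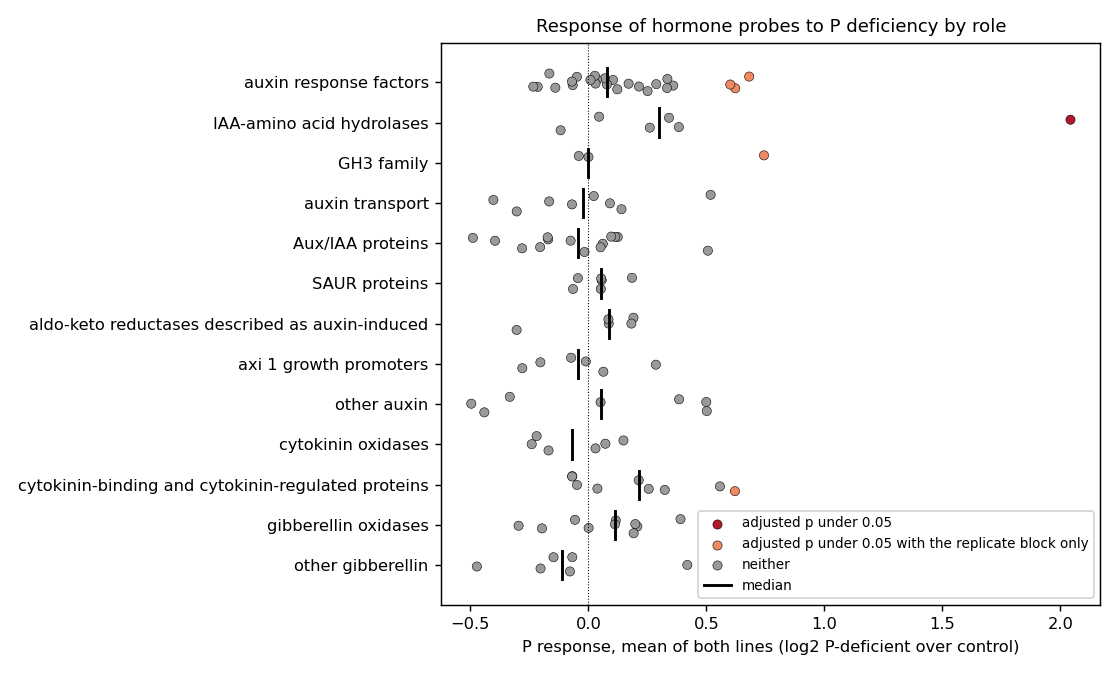
Each point is 1 tested hormone probe, placed by its P response as the mean of both lines (log2 P-deficient over control, x axis) in its role group (y axis), with black bars for group medians and colours for the test with and without the replicate block. The single probe far to the right is the hydrolase AK110647 at 2.04, and the other 110 lie between -0.50 and 0.74.

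The hydrolase probe (AK110647) is described by Arabidopsis ILR1, an amidohydrolase that frees IAA from amino acid conjugates. Its level was 11.19, 11.29 and 12.42 on the 3 P-deficient arrays, against 9.38, 9.21 and 10.17 on the 3 control arrays. All P-deficient arrays stood above all control arrays, and replicate 3 was the highest in each condition. The P response was 2.04 (SE 0.35, limma adjusted p = 0.0295), which is 4.12-fold, and with the replicate block the SE was 0.13 (adjusted p = 0.000146). In 6-4 the single channels read 10.82, 11.28 and 12.54 under P deficiency, against 9.12, 8.92 and 9.37 under control. In Nipponbare they read 11.55, 11.29 and 12.30 under P deficiency, against 9.64, 9.50 and 10.98 under control. The groups thus did not overlap in either line. Estimates by line were 2.39 in 6-4 (adjusted p = 0.059) and 1.70 in Nipponbare (adjusted p = 0.182), and neither passed. The call on the mean rests on few arrays: without control replicate 1, without control replicate 2 and without P-deficient replicate 2 the adjusted p was 0.16, 0.132 and 0.0662.

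The other 5 hydrolase probes did not pass, and the median of all 6 was 0.30. A second probe with the same ILR1 description (AK110676) had a level of 8.64, 8.70 and 8.26 on P-deficient arrays, against 8.42, 8.08 and 7.95 on control arrays, where the highest control array lay above the lowest P-deficient one. ILL6 (AK107208), a relative that in Arabidopsis also cleaves a jasmonate conjugate, read 9.27, 9.18 and 8.92 on P-deficient arrays, against 8.84, 8.86 and 8.65 on control arrays. Its groups did not overlap, at a P response of 0.34 (SE 0.15, adjusted p = 0.441). The 3 probes described by the rice hydrolase IAR were at -0.12, 0.05 and 0.26.

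Auxin response factors formed the biggest group, with 25 probes, and 18 of them had a positive and 7 a negative P response. The 3 probes with the description of rice arf1 gave the highest values of the group, and each passed with the replicate block. AK071997 read 10.83, 10.93 and 11.01 on P-deficient arrays, against 10.36, 10.29 and 10.07 on control arrays. AK065936 read 9.54, 9.57 and 9.76 on P-deficient arrays, against 8.96, 8.97 and 9.14 on control arrays. AK065254 read 7.40, 7.35 and 7.99 on P-deficient arrays, against 6.95, 6.76 and 7.17 on control arrays. It was the dimmest of the 3 and was not well above background in both channels of every array. In all 3 the P-deficient arrays lay above the control arrays without overlap. Their P responses were 0.68 (SE 0.14), 0.60 (SE 0.14) and 0.62 (SE 0.20), in that order, with adjusted p of 0.0556, 0.0844 and 0.251 without the block and 0.0245, 0.0212 and 0.0281 with it. Probes that share a description can share a gene, so these are not 3 independent measurements.

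Further ARF probes without overlap were OsARF16 (AK102521, 0.36), a probe matched to arf36 (AK108660, 0.33), OsARF2 (AK072309, 0.29) and OsARF10 (AK100322, 0.25), all higher on P-deficient arrays, with adjusted p between 0.429 and 0.587. A probe matched to arf31 (AK070487) was at -0.22 without overlap. OsARF16 read 11.82, 12.08 and 12.00 under P deficiency, against 11.72, 11.38 and 11.72 under control, so its closest arrays of the 2 conditions were 0.1 apart. The second OsARF10 probe (AK100795) was at -0.17, and the others of the arf36 description (AK063506 and AK109729) at 0.01 and 0.03. The median over the 25 was 0.08.

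Aux/IAA proteins, the repressors that ARFs pair with, had 14 probes, 0 of which passed, and a median of -0.05. The rice IAA1 probe (AK059838) read 13.40, 13.66 and 13.14 on P-deficient arrays, against 13.81, 13.89 and 13.97 on control arrays. Matches to tobacco iaa4.1 (AK100080) read 10.55, 10.13 and 10.34 on P-deficient arrays, against 10.64, 10.98 and 10.59 on control arrays. For tobacco iaa28 (AK068213) the values were 9.45, 9.55 and 9.41 on P-deficient arrays, against 9.56, 9.79 and 9.91 on control arrays. These 3 lay lower under P deficiency without overlap, at -0.49 (adjusted p = 0.27), -0.40 (0.425) and -0.28 (0.54). A probe matched to poplar IAA3 (AK066518) was at 0.51 with overlapping groups, since P-deficient replicate 2 alone read 7.85 and the other 2 read 6.93 and 7.09, against 6.42 to 7.12 on control arrays.

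In the GH3 family, only some members of which conjugate auxin to amino acids, 3 probes were tested and their median was 0. The probe matched to Arabidopsis DFL-1 (AK063368) read 7.68, 8.80 and 7.98 on P-deficient arrays, against 7.33, 7.58 and 7.32 on control arrays. The groups did not overlap, and replicate 2 was the highest array of each. Its P response was 0.74 (SE 0.26, adjusted p = 0.315), and with the block the SE was 0.17 (adjusted p = 0.0478). The probes of At2g46370 (AK071721) and At2g47750 (AK065412) were at 0 and -0.04. The second of these did not overlap between conditions, by less than the value's own SE of 0.12, and it turned to 0.0035 when each array was scaled to its median. The SAUR group of small auxin-induced proteins (6 probes) ran from -0.07 to 0.18, with overlapping conditions in all 6.

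Auxin transport probes had P responses on both sides of 0, and 0 of 8 passed. Both probes matched to the poplar efflux carrier pin2 had a negative P response. AK103181 read 6.64, 6.89 and 6.58 on P-deficient arrays, against 7.1, 7.31 and 6.91 on control arrays (-0.40, adjusted p = 0.373), and AK059577 was at -0.30 (adjusted p = 0.567). The conditions did not overlap in either. The 2 probes of rice REH1, a carrier of the same family, were at -0.17 and 0.02, and those matched to pin3 at -0.07 and 0.09.

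Of the remaining auxin probes, 5 are aldo-keto reductases that the design calls auxin-induced (median 0.09), 6 tested ones are relatives of axi 1, once described as a promoter of auxin-independent growth (median -0.04), and 7 have other auxin descriptions (median 0.05). A match to an auxin-regulated dual specificity kinase of tomato (AK111977) read 9.27, 9.44 and 8.98 on P-deficient arrays, against 8.94, 8.74 and 8.52 on control arrays. It was higher without overlap, at 0.50 (adjusted p = 0.297 without and 0.065 with the block). An auxin-related rice probe (AK068039) was at -0.50 with overlapping groups (adjusted p = 0.468 without and 0.108 with the block). The reductase AK064344 was at -0.30 and AK099774 at 0.18, and axi 1 relatives AK068263 and AK064215 were at -0.20 and 0.29, each without overlap.

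Cytokinin probes divided by role. The 6 oxidases that break cytokinins down ran from -0.24 to 0.15, with a median of -0.07, and 0 passed or stood apart between conditions. The lowest of them (AK103510) lacked control replicate 3, whose spot was flagged, and stood at 0.0073 (SE 0.25) with the replicate block, while the other 5 ran from -0.22 to 0.15. AK109624 and AK101022 had the smallest p of them, at -0.22 (adjusted p = 0.737) and -0.17 (0.779). Cytokinin-binding and cytokinin-regulated proteins had 9 probes with a median of 0.21. A match to tobacco CRK1 (AK109954), a kinase gene regulated by cytokinin there, read 8.96, 9.04 and 9.0 on P-deficient arrays, against 8.51, 8.20 and 8.43 on control arrays. The 3 P-deficient values lay within 0.1 of each other and above every control value, at 0.62 (SE 0.14, adjusted p = 0.0762), and with the block the adjusted p was 0.0301. The other 4 CRK1 matches were at 0.32 (AK109788), 0.21 (AK106925), -0.05 (AK106429) and -0.07 (AK109679), the first 2 without overlap. A match to cabbage cytokinin-binding protein CBP1 (AK109008) read 8.14, 8.20 and 8.79 on P-deficient arrays, against 7.89, 7.87 and 7.70 on control arrays, a P response of 0.56 (adjusted p = 0.291). The other 3 CBP1 probes ran from -0.07 to 0.26 with overlapping groups.

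Gibberellin oxidases had 10 probes, 0 of which passed, with a median of 0.11. A rice C-20 oxidase of active gibberellin synthesis (AK061017) read 10.86, 11.07 and 11.26 on P-deficient arrays, against 10.67, 10.54 and 10.80 on control arrays. It stood apart narrowly, at 0.39 (SE 0.15, adjusted p = 0.373). The 20-oxidase AK110729 (0.20) and the 3-beta-hydroxylase match AK072410 (0.21) did so too. The 4 probes of rice GA2ox3, a 2-oxidase that inactivates gibberellin, were at -0.30, -0.20, 0.11 and 0.19, and the last of these (AK107211) lacked P-deficient replicate 3, whose spot carried an outlier flag, and stood at -0.14 with the replicate block. Among 6 other gibberellin probes (median -0.11), GIGR2 (AK073470), a chitin-inducible gibberellin-responsive protein of rice, read 10.71, 10.81 and 10.60 on P-deficient arrays, against 10.36, 10.22 and 10.29 on control arrays. Its conditions did not overlap, at 0.42 (SE 0.13, adjusted p = 0.236). A second GIGR2 probe (AK073386) was at -0.20 with overlap. A match to petunia gip3 (AK059073) was at -0.47 (adjusted p = 0.336), and one to barley SPY (AK065854), a negative regulator of gibberellin action, at -0.15.

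**Figure D2:**
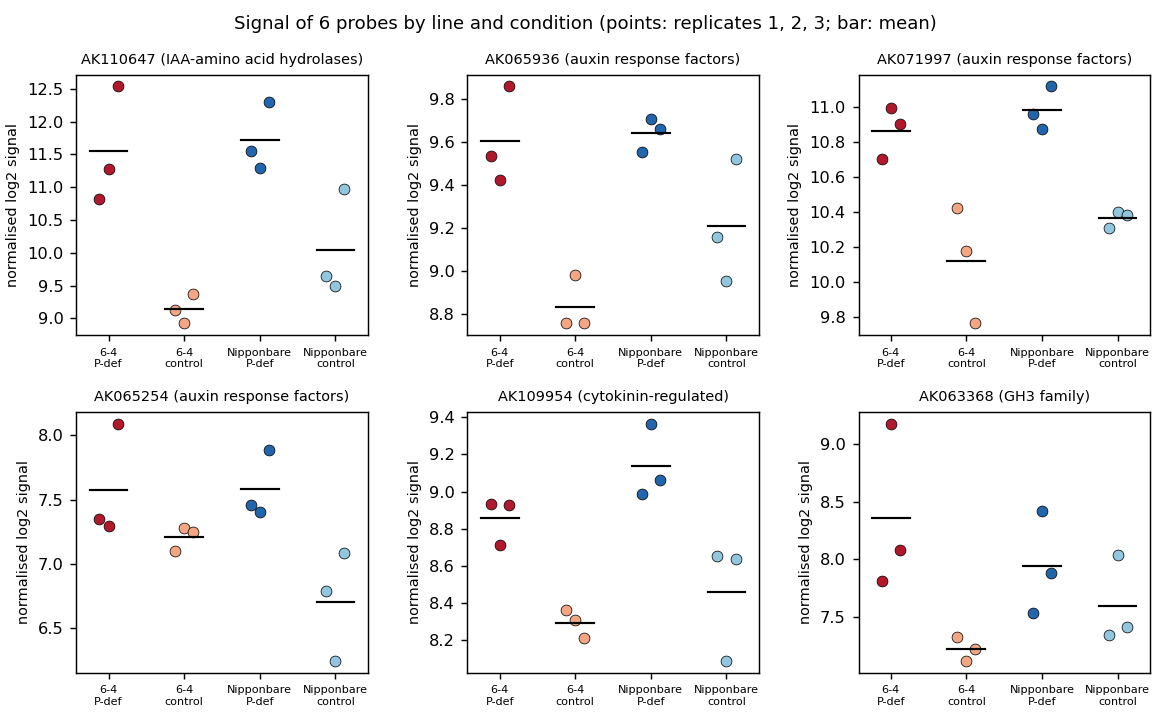
Each panel shows 1 of the 6 probes called with the replicate block, with normalised log2 signal of single channels (y axis) in the 4 groups (x axis), 3 replicates as points and the mean as a bar. In AK110647 the P-deficient points lie above the control points in both lines, while in AK063368 the lowest 6-4 point under P deficiency is 7.82 and the highest under control 7.32, against 7.53 and 8.04 in Nipponbare.

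Counted together, 22 of 108 hormone probes with a value on every array had P-deficient levels wholly above control levels, and 9 had them wholly below. That is 20.4% and 8.33%, beside 7.67% and 8.97% of all 20054 probes with a value on every array. The median P response of the 111 tested was 0.05, against -0.01 over all probes, and 65 of them were above 0. These counts describe a list in which probes share descriptions and can share genes. The 22 belong to 10 of the 13 role groups, with 7 ARF and 4 cytokinin-binding or cytokinin-regulated probes among them. With the replicate block, 6 of 111 hormone probes were called higher and 0 lower, beside 2.64% and 1.61% of all probes.

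Genes of the same pathways whose descriptions lack the chosen words included 5 called responses, 4 higher and 1 lower, of 96 tested, beside 1.04% and 0.468% of all probes. Of 12 probes for auxin transport and signalling, 2 rose and 0 fell, both matched to the tobacco GH3 enzyme Nt-gh3. AK101193 read 11.12, 11.34 and 10.99 on P-deficient arrays, against 10.20, 10.19 and 10.32 on control arrays (0.91, SE 0.14, adjusted p = 0.019), and AK102809 was at 0.80 (SE 0.15, adjusted p = 0.0414). Another Nt-gh3 match (AK106839) was at 0.16 (adjusted p = 0.895), with overlapping groups. Of 23 auxin synthesis probes, 0 rose and 1 fell, a match to maize aldehyde oxidase-2 (AK105707), an enzyme class that can oxidise indole-3-acetaldehyde to IAA. It read 8.45, 8.81 and 8.53 on P-deficient arrays, against 9.97, 10.37 and 9.52 on control arrays (-1.36, SE 0.22, adjusted p = 0.0209). Other probes of the same description were at 0.70 (AK111275), 0.15 (AK100342), 0.03 (AK103597) and -0.24 (AK072847), with overlapping groups. The replicate block added a match to Arabidopsis aldehyde oxidase AAO4 (AK058321, -0.75, adjusted p = 0.0114) and one to tryptophan decarboxylase of periwinkle (AK069031, 0.71, adjusted p = 0.024). With the block, 2.64% of all probes were called higher and 1.61% lower. Of 10 probes found by brassinosteroid words, 2 rose and 0 fell. One is maize DWARF3 (AK069429), known in maize as a gibberellin synthesis P450 and caught by the word dwarf. It read 10.07, 10.36 and 10.82 on P-deficient arrays, against 8.59, 8.39 and 9.45 on control arrays (1.61, SE 0.29, adjusted p = 0.0344). The other is a sterol demethylase of the CYP51 class (AK065792, 0.89, SE 0.17, adjusted p = 0.0449). Another probe of that class (AK107185) was at 0.01, with overlapping groups. Of 17 cytokinin synthesis and two-component probes and 34 gibberellin signalling and target probes, 0 were called, and the block added cis-zeatin O-glucosyltransferase of maize (AK111866, 1.0, SE 0.13, adjusted p = 0.00429), which stores cytokinin as a glucoside.

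Between the lines, averaged over both conditions, 0 of the 111 hormone probes passed the limma test, beside 0.263% of all 20528 probes higher in 6-4 and 0.663% lower. An unadjusted p under 0.05 was found for 24 of the 111. Such values were common on the whole array too: over all 20528 probes, an unadjusted p of 0.0493 in this test held rank 3484. Line values are log2 ratios of 6-4 over Nipponbare. The lowest estimate was that of an aldo-keto reductase described as auxin-induced (AK103553). Its ratio was -0.77, -0.61 and -0.21 on the P-deficient arrays and -1.01, -0.05 and -0.75 on the control arrays, a fitted -0.57 (SE 0.10, adjusted p = 0.0733). A match to an auxin-induced protein of ice plant (AK107987) was at -0.34, -0.40 and -0.67 on P-deficient and -0.77, -0.53 and -0.23 on control arrays, fitted at -0.49 (SE 0.08, adjusted p = 0.0627). In both, 6-4 was lower than Nipponbare on all 6 arrays. The hydrolase AK110647, which rose under P deficiency, was fitted at -0.54, but its ratios did not keep to 1 side on all 6 arrays. Its line effect was not called, also under other processing (limma adjusted p 0.0932 to 0.622).

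With the replicate block, 2 of 110 hormone probes passed as lower in 6-4, beside 1.12% of all, AK103553 (adjusted p = 0.0127) among them. Line ratios of same-numbered arrays did not deviate together (correlations -0.604, -0.751 and -0.371), so a shared block is not called for here. It also leaves fewer residual degrees of freedom than the 3 of the main line fit. The third probe on 1 side on all 6 arrays and lower in 6-4 was GIGR2 (AK073470, -0.29, adjusted p = 0.0985). Those higher in 6-4 on all 6 were the pin2 match AK059577 (0.29, adjusted p = 0.19) and the CBP1 match AK060655 (0.20, adjusted p = 0.287). So 2 of 108 hormone probes were higher and 3 lower on all arrays, 1.85% and 2.78%, beside 2.53% and 2.87% of all probes.

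Among the pathway genes without the chosen words, 1 of 96 passed as higher and 2 as lower in 6-4, beside 0.263% and 0.663% of all probes. The Nt-gh3 match AK102809, which rose under P deficiency, had ratios of -0.51, -0.41 and -0.23 on P-deficient arrays and -0.71, -0.69 and -1.13 on control arrays, fitted at -0.61 (SE 0.07, adjusted p = 0.0248). Maize DWARF3 (AK069429), which rose too, was at -0.24, -0.10 and -0.09 on P-deficient arrays and -0.49, -0.49 and -0.67 on control arrays, fitted at -0.35 (SE 0.05, adjusted p = 0.0473). Both were lower in 6-4 on every array. A probe matched to a flavin-containing monooxygenase of dog (AK071801), which the words of the auxin synthesis list caught, was higher in 6-4 on 5 of 6 arrays, with 0.27, -0.39 and 0.33 on P-deficient arrays and 0.86, 1.35 and 0.36 on control arrays, fitted at 0.46 (SE 0.07, adjusted p = 0.0478). Another probe of the same description (AK105500), which lacked control replicate 3, was fitted at -0.01.

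**Figure D3:**
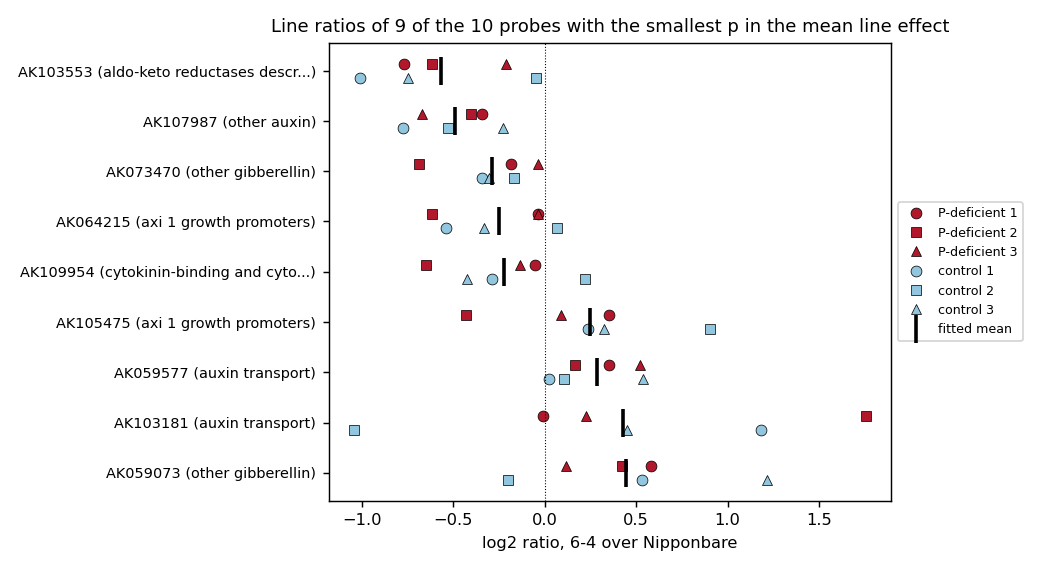
Log2 ratios of 6-4 over Nipponbare (x axis) are shown for 9 of the 10 hormone probes with the smallest p in the mean line effect (rows), with 1 symbol per array and the fitted mean as a vertical bar. The 6 arrays of AK103553 and AK107987 all lie left of 0, while the P-deficient and control replicate 2 arrays of AK103181 lie at 1.76 and -1.04.

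Line ratios within 1 condition are confounded with a feature of the arrays. Replicate 2 had Nipponbare in Cy5 under P deficiency and 6-4 in Cy5 under control, and their log2 ratios of Cy5 over Cy3 correlated at 0.615 over 20054 probes, the highest of all 15 pairs (the next was 0.445). A Cy5 over Cy3 deviation that these 2 arrays share enters the fitted line effect by 0.5 of its size under control, by -0.5 under P deficiency and by -1 in their difference, leaves no residual, and does not enter the mean of both conditions. Line effects by condition, their difference and the P response of each line therefore cannot be told apart from such a shared deviation. This holds for the single-probe values of these kinds given here as well as for the counts.

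Under P deficiency 13 hormone probes passed as different between 6-4 and Nipponbare (5 higher and 8 lower in 6-4), beside 8.94% of all probes (4.32% higher, 4.62% lower). Under control 12 passed (6 higher, 6 lower), beside 12.9% (6.74% higher, 6.19% lower). The difference of the line effects passed for 23 of 111, which is 20.7%, beside 19.7% of all. Of the 23, 10 were higher and 13 lower, beside 9.39% and 10.3% of all probes. In 23 of these 23 the replicate 2 arrays of the 2 conditions lay on opposite sides of 0, and in 20 they held the 2 largest ratios of the 6 arrays in size. On replicates 1 and 3 the conditions lay on opposite sides in 12 and 12. The median size of the ratio was 0.749 on replicate 2 and 0.101 on replicates 1 and 3. Opposite and large ratios are in part what the call selects, so these counts are a description. Of the 85 uncalled probes with a value on every array, 59 had the replicate 2 arrays on opposite sides, with a median size of 0.197 on replicate 2 and 0.143 on replicates 1 and 3. The 23 called probes were also dimmer, with a median level of 7.27, against 8.95 for the uncalled probes, and the part of this was not tested. The Aux/IAA probe AK061037 is 1 of the 23: its ratio was 0.10, 1.10 and 0.11 on P-deficient arrays, against 0.02, -1.07 and -0.07 on control arrays. Without control replicate 2, 0 of 111 were called. Of the 23, 17 kept their call when control replicate 1 was left out, and 23 when control replicate 3 was. For the P-deficient arrays 1, 2 and 3, left out in turn, 12, 8 and 12 kept it. When a replicate 2 array is left out, its condition has 6-4 in 1 dye only, so line and dye are not separated within it. The share of all probes called in these fits is not given, so the part of replicate 2 was not tested by these counts.

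**Figure D4:**
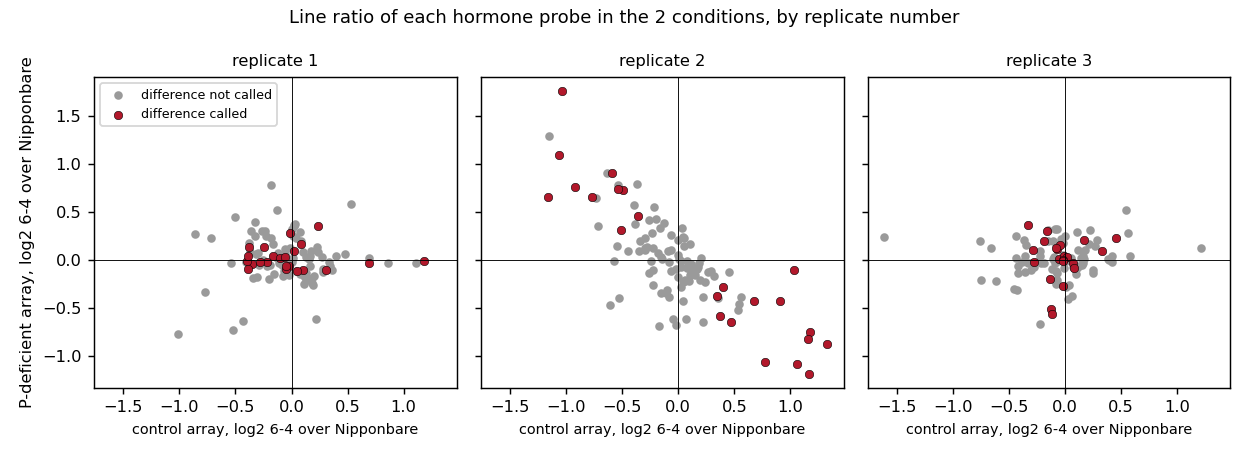
Each panel plots, for 1 replicate number, the log2 ratio of 6-4 over Nipponbare on the P-deficient array (y axis) against that on the control array (x axis), with 1 point per hormone probe and the 23 called differences in red. In the panel of replicate 2 all 23 red points lie in the quadrants where the 2 conditions have opposite signs, while for replicates 1 and 3 the median size of their ratios is 0.101.

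Within lines, 1 of 108 hormone probes passed in each, both higher under P deficiency. Of all probes 1.06% were called higher and 0.264% lower in 6-4, and 0.563% higher and 0.224% lower in Nipponbare. In 6-4 it was the GH3 match AK063368, with channel values of 7.82, 9.18 and 8.08 under P deficiency, against 7.32, 7.12 and 7.22 under control (1.25, SE 0.26, adjusted p = 0.0389). In Nipponbare the same probe read 7.53, 8.42 and 7.88 under P deficiency, against 7.34, 8.04 and 7.41 under control (0.24, adjusted p = 0.715). The difference between the lines was 1.01 (SE 0.12, adjusted p = 0.00573), and its 6-4 ratio was positive on every P-deficient array (0.28, 0.76 and 0.19) and negative on every control array (-0.02, -0.92 and -0.19). In Nipponbare the CRK1 match AK109954 passed, with 8.99, 9.36 and 9.06 under P deficiency, against 8.65, 8.09 and 8.64 under control (0.77, SE 0.14, adjusted p = 0.031). In 6-4 it read 8.93, 8.71 and 8.93 under P deficiency, against 8.36, 8.31 and 8.21 under control (0.47, adjusted p = 0.151), and the difference between the lines did not pass (-0.30, adjusted p = 0.0813). AK109954 lost its call when any 1 of the 6 arrays was left out (adjusted p 0.0966 to 0.336), and AK063368 in 5 of 6 such fits (adjusted p 0.0459 to 0.26). With the replicate block, 14 hormone probes were higher and 7 lower under P deficiency in 6-4, beside 7.27% and 7.06% of all probes, and 8 were higher and 6 lower in Nipponbare, beside 6.32% and 5.32%.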

How the data were processed

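Each of the 6 Agilent 2-colour arrays has 22575 spots. Spot intensity in Cy3 and Cy5, as mean signal beside the local background's median, was deposited as the scanner software Feature Extraction wrote it, version 7.1 for replicates 1 and 2 and 8.1 for replicate 3 per the file headers, although P-deficient replicate 2 has 8.1 in the submitters' processing notes. Per the labels' protocols, RNA was linearly amplified into labelled cRNA. The deposited series table holds log10 ratios of 6-4 over Nipponbare: it equals the scanner log10 ratios, turned where 6-4 was in Cy3, at 22575 of 22575 spots on every array within 0.005.

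Here signals were background-corrected with limma 3.58.1 (normexp, offset 50, R 4.3.3) and loess-normalised within arrays, with control spots and 569 flagged spots at weight 0. Of 21495 rice probes 20531 were kept. Line effects came from lmFit and eBayes on log2 ratios of all 6 arrays with condition and dye terms (3 residual degrees of freedom), the mean P response from Aquantile-normalised mean log2 intensity, and responses by line from lmscFit (intraspot correlation 0.803) on 20054 probes without flagged spots, which drops 3 hormone probes (AK103327, AK103510, AK107211). P-values were adjusted by Benjamini-Hochberg over all probes. Fits were tested on simulated data. Signal was well above background for 89.8% to 95.5% of probes in Cy3 and 95% to 99.5% in Cy5. Of the 111 hormone probes, 95 were so on all arrays of all 4 groups and 16 on 1 or 2 of 3 arrays of some group, and 0 were saturated. The number of arrays limits precision, and p-values measure the spread between these replicates.

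Conditions share replicate numbers. Levels of same-numbered arrays deviated together (correlations 0.402, 0.315 and 0.66), so blocked values stand beside P responses where calls change. Line ratios, in opposite dyes, did not (-0.604, -0.751 and -0.371). Hormone probes and lists were chosen with earlier results of these data known, and list words were corrected after reading descriptions and before any fit. Descriptions holding IAA only within a KIAA cDNA name were left out. Named probes were those called in any of 7 comparisons, the 2 smallest p in the mean P response and the smallest in the mean line effect per role, the largest non-overlapping responses (8 per direction), the largest line effects on 1 side of all arrays, and those sharing a description with them. Probes named beyond this complete a role group or the counts and were chosen after their values were seen. The values of 1 auxin transport probe are not reported here, though it is in the counts. No sequences or positions are given, since the tables used here hold none for these probes.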

Additional observations from a re-analysis of the deposited data

Results flagged for a closer look

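Differences between the line effects under P deficiency and under control (log2 6-4 over Nipponbare, P-deficient minus control) were called for 23 hormone probes. As described above, they cannot be told apart from a Cy5 over Cy3 deviation that the replicate 2 arrays share. The values were as follows. Among Aux/IAA probes AK066518 was at -0.88, AK061037 at 1.15, AK069902 at 0.64 and AK102541 at -1.15. The GH3 probe AK063368 was at 1.01. Among SAUR probes AK062728 was at 0.44, AK062898 at 0.82 and AK058556 at -0.77. Among ARF probes AK065254 was at -0.66, AK065579 at 0.50, AK064661 at -0.38, AK109729 at 1.05, AK063506 at -0.40 and AK109449 at -0.37. Among transport probes AK100297 was at -1.03, AK101504 at 0.91 and AK103181 at 1.04, and the axi 1 relative AK105475 was at -0.70. Cytokinin oxidase probes AK109251 and AK109624 were at 0.76 and -1.04, the CBP1 match AK108011 at -1.0, and the GA2ox3 probes AK063973 and AK101713 at -0.95 and -0.48.

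In 5 probes all 3 P-deficient arrays lay on 1 side of 0 and all 3 control arrays on the other. The share of all probes with such a split was not counted, so 5 cannot be set against the whole array. The medians differed by 0.468 in AK063368, -0.759 in AK058556, 0.251 in AK103280 (OsARF6a), 0.743 in AK109729 and -0.335 in AK066552 (an efflux carrier match). For AK103280 and AK066552 the difference did not pass the limma test, and the split by sides itself was not tested. No outlier test was run, since groups of 3 arrays are too small for it.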

How the results depend on the processing

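Counts are of hormone probes called. The share of all probes called in these settings is not given. A changed count therefore cannot be told apart from a change across the whole array. By the file headers, version 8.1 marks replicate 3 of both conditions. The version term is thus a part of the replicate block and not a check independent of it, and the version 7.1 arrays are replicates 1 and 2. The mean P response (1) gave 0 with Agilent's processed signals, 2 with no background correction, 2 with the strict filter (well above background in both channels of all 6 arrays), 5 with the version of the scanner software as a term, 0 with arrays scaled to their median, and 0 with replicates 1 and 3 alone, an alternative chosen after seeing the data. Leaving out 1 replicate gave 0 to 1. The response in 6-4 (1) gave 0 with processed signals, 8 with the version term, 0 on version 7.1 arrays alone, 2 with quantile normalisation, 0 with median scaling, and 0 to 1 without 1 replicate. That in Nipponbare (1) gave 0 with no background correction, 7 with the version term, 0 on version 7.1 arrays, 0 with median scaling, and 0 without any 1 replicate. The mean line effect (0) gave 1 with the version term, 2 on version 7.1 arrays, and 0 to 4 without 1 replicate, the 4 without control replicate 3. Under control (12) processed signals and the deposited table gave 6 each, no background correction 0, the strict filter 5, version 7.1 arrays 19, no dye term 0, and 1 replicate less 0 (control replicate 2, or P-deficient replicate 3) to 21 (control replicate 3). Under P deficiency (13) these gave 2, 2, 0, 7, 9 and 0, and 1 replicate less 0 (any P-deficient replicate) to 33 (control replicate 3). The difference (23) gave 0 with no background correction, 12 with the strict filter, 0 with no dye term, and 0 (without control replicate 2) to 35 (without control replicate 3). Causes were not tested, and this includes the shared replicate 2 deviation described above.

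With the replicate block the counts were 6 for the mean P response, 21 in 6-4, 14 in Nipponbare, 2 for the mean line effect, 8 under P deficiency, 12 under control and 17 for the difference. Blocked shares of all probes are given above for the P responses and the mean line effect only. For line ratios a shared block is not called for, as described above. AK110647 kept a positive P response in all settings, from 1.63 to 2.30, with adjusted p from 0.000146 to 0.282. It was not called with processed signals (0.118), median scaling (0.087) or replicates 1 and 3 alone (0.282). AK071997 also passed with no background correction (0.0378), the strict filter (0.0479) and the version term (0.0235). With 1 replicate left out, the P response of AK062728 ran from -0.016 (without P-deficient replicate 2) to 0.32 (without P-deficient replicate 3), and that of AK065412 turned to 0.0035 with median scaling. For single probes, 749 of the other values kept their direction and side of the threshold, 19 passed it and 23 lost it.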
